A study of Mus musculus with 8 samples.

Results

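The mouse genome carries 39 Hox genes, and all 39 were found in a table of 34535 isoforms of 24358 gene symbols by matching the gene symbol to Hox, a cluster letter from a to d and a paralogue number. They were listed as 45 isoforms. RNA sequencing had been done on adipocyte precursors, the cells that give rise to fat cells, sorted from dermis; all samples came from male C57/Bl6 mice, 7 week old. There were 6 nonwounded samples, from dorsal skin, and 2 samples from the wound bed at day 5. No transgene or drug is named for either group, and the labels used here do not say on which part of the body the wounds were made, which cells the sort kept by which surface markers, or whether the samples of a group came from separate animals. Each group has 1 FPKM value per isoform, estimated by the authors over its samples. FPKM counts fragments per length of transcript and per depth of the library. No spread between samples can therefore be shown. The p-values rest only on these samples, and the spread between them may be technical.

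Hox genes encode transcription factors that bind DNA through a homeodomain and give cells their place along the body axis. They lie in 4 clusters, and within a cluster the genes at one end are used near the head and those at the other end near the tail and in the outer limb, while Polycomb and Trithorax proteins hold the chosen genes off or on. Fibroblasts of adult skin keep the Hox pattern of the site they came from, and fat depots of different sites also differ in Hox expression.

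None of the tested Hox genes passed the test between wound bed and nonwounded precursors. Of the 45 isoforms, 25 isoforms of 23 genes had enough reads for the Cuffdiff test in the authors' deposited table, and 0 of these had a Benjamini-Hochberg adjusted p under 0.05, against 12.9% of all 17775 tested isoforms (5.66% higher and 7.25% lower). Calls were rarer at moderate levels. Among tested isoforms whose higher group had an FPKM from 1 to under 20, the range that held 22 of the 25 Hox isoforms, 9.9% were called. Before adjustment, 3 Hox isoforms (12%) had a p under 0.05 in the authors' deposited table, against 27.3% of all tested isoforms. These were Hoxd8 and Hoxa10, both with a lower FPKM in the wound bed, and Hoxc6, with a higher one. Of all tested isoforms, 16.4% had such a p with a lower value and 10.9% with a higher one. At an adjusted p under 0.1 there were 2, Hoxd8 and Hoxa10, against 17.7% of all tested isoforms (7.52% higher and 10.2% lower). Adjusted p-values of the tested Hox isoforms ran from 0.0629 to 0.947, and no other test could be run on values given per group. A p above the threshold does not show that the levels were equal.

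**Figure D1:**
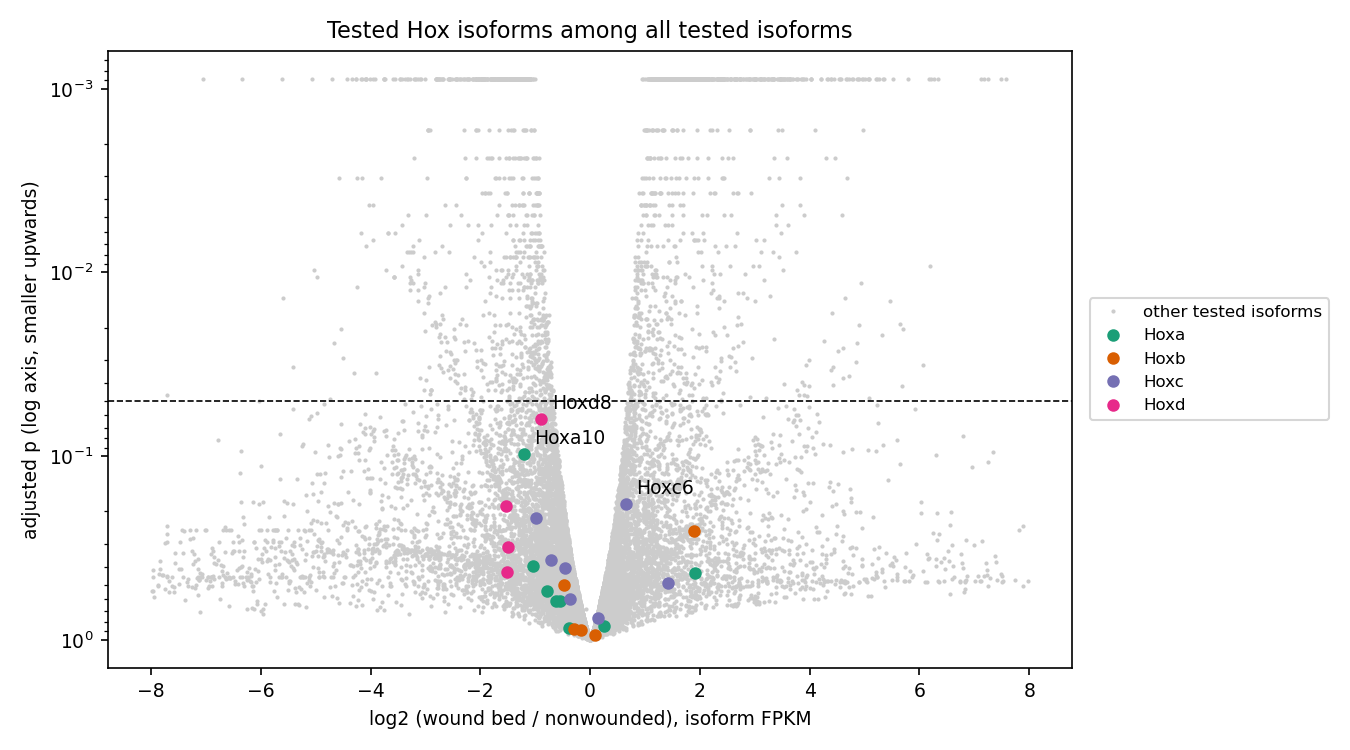
Each tested isoform is placed by its log2 ratio of wound bed to nonwounded FPKM (x axis) and its adjusted p on a log axis with smaller values upwards, with Hox isoforms coloured by cluster, the others in grey, and the dashed line at 0.05. All plotted Hox isoforms lie below the line, the nearest being Hoxd8 at 0.0629 and Hoxa10 at 0.0978, and isoforms listed at 0 in a group or with a log2 ratio beyond 8 in size, among them 1 of Hoxa9, are not drawn.

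The same genes led the family in both groups. Hoxc6, Hoxd8, Hoxc8, Hoxb2 and Hoxc10 were the 5 most abundant Hox genes in the wound bed and also the 5 most abundant in nonwounded precursors, and together they held 64.8% and 57.4% of the summed Hox FPKM. The sum over all Hox genes was 76.6 in the wound bed against 96.6 in nonwounded precursors, a log2 ratio of -0.34. Across the 39 genes, which are not independent replicates, the FPKM of the groups had a Spearman rank correlation of 0.93, given as a description of 2 tables from 1 pipeline. In these bulk samples, fewer cells that express a gene and less RNA per cell cannot be told apart.

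The stretch that encodes the core of the third, DNA-recognition helix is shown for the 5 leading genes and for Hoxa10, because Hox genes resemble each other most there and reads must be told apart by the bases that differ. The sequences are from GENCODE transcripts on GRCm38, read 5′ to 3′ on the coding strand, with the bases that encode the core of the helix in capitals.
Hoxc6, chr15:103010883-103010927, plus strand: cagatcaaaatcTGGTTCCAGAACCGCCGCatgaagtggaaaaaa
Hoxd8, chr2:74706654-74706698, plus strand: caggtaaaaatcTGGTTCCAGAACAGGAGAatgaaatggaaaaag
Hoxc8, chr15:102992700-102992744, plus strand: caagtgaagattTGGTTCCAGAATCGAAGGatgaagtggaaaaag
Hoxb2, chr11:96353114-96353158, plus strand: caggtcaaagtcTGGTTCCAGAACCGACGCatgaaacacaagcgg
Hoxc10, chr15:102970977-102971021, plus strand: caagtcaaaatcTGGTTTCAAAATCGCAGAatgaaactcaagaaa
Hoxa10, chr6:52232560-52232604, minus strand: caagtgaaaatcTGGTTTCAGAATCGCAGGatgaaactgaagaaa
Of the 45 bases shown for each gene, Hoxd8 differed from Hoxc6 at 8 bases, Hoxc8 at 10, Hoxb2 and Hoxa10 at 11 each, and Hoxc10 at 12. Over the whole homeobox of 180 bases, the 741 pairs of Hox genes shared between 46.1% and 93.9% of their bases, with a median of 61.1%, the closest pair being Hoxa3 and Hoxb3. Exact stretches of 50 bases in common were found between Hoxa6 and Hoxb4 and between Hoxb9 and Hoxc9, while the other 35 genes had none. Only Hox transcripts were compared with each other, and the read length is not given in the sources used here.

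**Figure D2:**
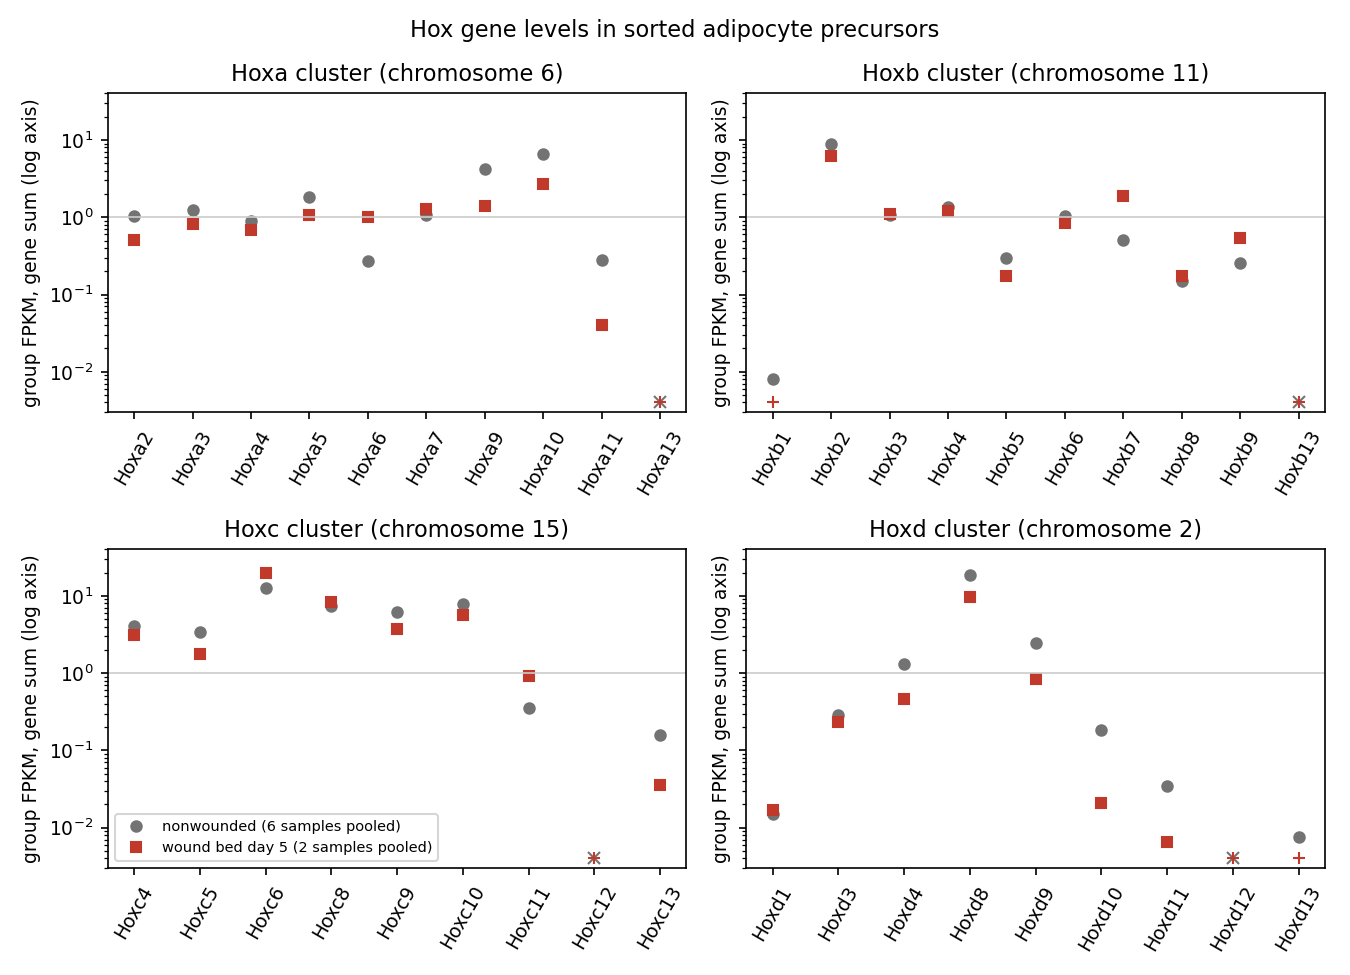
The summed isoform FPKM of Hox genes (y axis, log scale) is drawn by cluster and paralogue number, with grey circles for nonwounded precursors and red squares for the day 5 wound bed, and no error bars because each group has 1 pooled value. A cross (nonwounded) or a plus (wound bed) at the foot marks a gene listed at 0, the grey line is at an FPKM of 1, and Hoxc6 and Hoxd8 stand highest.

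The Hoxc cluster on chromosome 15 (102921131 to 103036852, as the table gives it) held the largest part of the Hox signal in both groups, with a summed FPKM of 43.2 in the wound bed against 42.1 in nonwounded precursors (log2 ratio 0.04). Hoxc6, a gene of the thoracic region, had an FPKM of 19.7 in the wound bed against 12.6 in nonwounded precursors. It ranked first in the wound bed, with 25.7% of the Hox total, and second in nonwounded precursors, with 13.02%. Its log2 ratio was 0.65, with p = 0.0495 in the authors' deposited table and an adjusted p of 0.182, so the difference was not called. Hoxc8, which in mice represses the brown fat programme, was at 8.25 in the wound bed against 7.47 in nonwounded precursors (log2 ratio 0.14). The 2 levels were close.

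Hoxc10, a gene of the lumbar and hindlimb region that is expressed in subcutaneous fat, was at 5.66 in the wound bed against 7.80 in nonwounded precursors (log2 ratio -0.46, adjusted p 0.408). Hoxc9, used in mice as a marker of white fat, was at 3.77 and 6.20 in the same order (-0.72, adjusted p 0.370). Both had the lower value in the wound bed without passing the test. The more anterior members were also below their nonwounded level, Hoxc4 with 3.13 against 4.04 (-0.37, adjusted p 0.599) and Hoxc5 with 1.75 against 3.45 (-0.98, adjusted p 0.217). Hoxc11 stayed under an FPKM of 1 in both groups, at 0.931 in the wound bed against 0.350 in nonwounded precursors (adjusted p 0.489). Hoxc13, which hair and nail formation needs, was at 0.0356 and 0.158 and was not tested, and Hoxc12 was listed at 0 in both groups.

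The Hoxd cluster on chromosome 2 (74668310 to 74765142) had a log2 ratio of -1.03 for its summed FPKM, with 11.3 in the wound bed against 23.1 in nonwounded precursors. Most of that was Hoxd8, the most abundant Hox gene of nonwounded precursors. Its summed FPKM was 9.69 in the wound bed against 18.8 in nonwounded precursors, which was 12.7% and 19.5% of the Hox total. The neighbouring Hoxd9, active in the lower trunk and the limb, was at 0.849 in the wound bed against 2.45 in nonwounded precursors (-1.53, p = 0.0516 in the authors' deposited table, adjusted p 0.187). Hoxd4, a gene of the hindbrain and neck that is a known target of retinoic acid, was at 0.464 and 1.31 (-1.50, adjusted p 0.311). All 4 Hoxd genes that reached an FPKM of 0.1 in each group (Hoxd3, Hoxd4, Hoxd8 and Hoxd9) were lower in the wound bed by value. Hoxd3 was not tested, and none of the others passed the test. The table gives Hoxd3, Hoxd4 and the antisense transcript Hoxd3os1 the same locus, and the labels do not say whether counting used strand, so reads from bases that the antisense transcript overlaps cannot be told apart.

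The Hoxa cluster on chromosome 6 (52155367 to 52260880) had a summed FPKM of 9.86 in the wound bed against 18.01 in nonwounded precursors (log2 ratio -0.87). Hoxa10, which patterns the lumbar region and the uterus, was its most abundant member, at 2.70 in the wound bed against 6.67 in nonwounded precursors. Hoxa9, which also acts in blood stem cells, was at 1.42 and 4.16, summed over 2 isoforms. Its more abundant isoform was at 1.42 and 2.09 (adjusted p 0.611). The 2 posterior genes Hoxa10 and Hoxa9 accounted for most of the difference in the cluster's sum. Hoxa2 and Hoxa3, which pattern the hindbrain and the pharyngeal arches, were at 0.5003 and 0.812 in the wound bed, against 1.03 and 1.26 in nonwounded precursors, with adjusted p of 0.394 and 0.617. Hoxa5, which lung development needs, was at 1.07 in the wound bed against 1.83 in nonwounded precursors (-0.78, adjusted p 0.539). Hoxa6 went the other way by value, with 1.02 in the wound bed against 0.272 (1.91, adjusted p 0.434), and Hoxa7 was at 1.29 against 1.08 (0.25, adjusted p 0.844). The table gives Hoxa3 to Hoxa6 and 2 antisense RNAs the same locus.

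The Hoxb cluster on chromosome 11 (96194361 to 96368253) summed to 12.2 in the wound bed against 13.47 in nonwounded precursors (-0.14). Hoxb2, a hindbrain gene, made up the larger part, at 6.29 and 8.80 (-0.48, adjusted p 0.501). Hoxb3 was at 1.10 and 1.08 (0.03), and Hoxb4, which promotes self-renewal of blood stem cells, at 1.20 and 1.35 (-0.16, adjusted p 0.879). Hoxb6 was at 0.831 in the wound bed against 1.02 in nonwounded precursors (-0.30, adjusted p 0.870). It shares its listed locus, which holds 3 symbols, with Hoxb5. Hoxb7 had one of the largest positive log2 ratios of the family at 1.90, from 0.504 in nonwounded precursors to 1.88 in the wound bed, with p = 0.0881 in the authors' deposited table and an adjusted p of 0.257. None of the tested Hoxb differences passed the test.

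The other 18 genes had a summed FPKM below 1 in both groups, at most 0.931, and of these 10 had the lower value in the wound bed, 4 the higher and 4 were equal. Among them were Hoxa4, Hoxa11, Hoxa13, Hoxb1, Hoxb5, Hoxb8, Hoxb9, Hoxb13, Hoxc11, Hoxc12, Hoxc13, Hoxd1, Hoxd3, Hoxd10, Hoxd11, Hoxd12 and Hoxd13. Only Hoxa4 and Hoxc11 among them were tested, and neither was called. Hoxa13, Hoxb13, Hoxc12 and Hoxd12 were listed at 0 in both groups, and Hoxb1 and Hoxd13 were listed at 0 in the wound bed and below 0.01 in nonwounded precursors. The genes of paralogue groups 12 and 13, which act in the tail, the genital region and the hand and foot, thus summed to 0 and 0.0356 in the wound bed and to 0 and 0.166 in nonwounded precursors. Depth per sample is unknown, so a value of 0 sets no upper limit.

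By position along the clusters, the central paralogue groups 4 to 8 carried most of the Hox signal in both groups, with an FPKM sum of 51.3 in the wound bed against 55.1 in nonwounded precursors. Their share of the Hox total was 67.0% in the wound bed against 57.0% in nonwounded precursors. The posterior groups 9 to 13 summed to 16.0 and 28.6, a share of 20.9% against 29.6%. The anterior groups 1 to 3 summed to 9.27 and 13, a share of 12.1% against 13.46%. By cluster, Hoxc held 56.5% of the total in the wound bed against 43.5% in nonwounded precursors, Hoxd 14.7% and 23.9%, Hoxa 12.9% and 18.6%, and Hoxb 15.9% and 13.9%. These shares come from 1 value per group and carry no test.

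**Figure D3:**
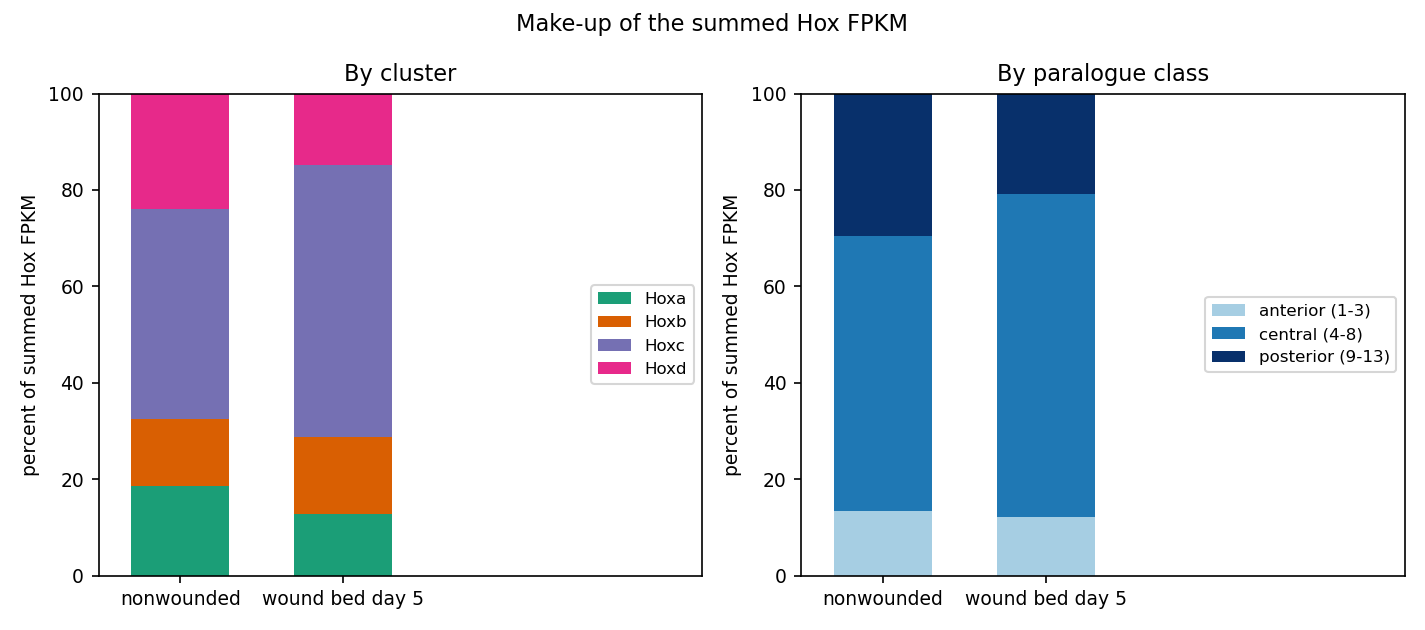
Stacked bars give each cluster (left) or paralogue class (right) as a percentage of the summed Hox FPKM of its group. The Hoxc share is 43.5% in nonwounded precursors and 56.5% in the wound bed and the central share 57.0% and 67.0%, while the Hoxc sum was near even (42.1 and 43.2) and the central sum was the lower one in the wound bed (55.1 and 51.3).

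For single genes the values leaned to lower FPKM in the wound bed. Of the 28 Hox genes that reached an FPKM of 0.1 in each group, 19 were lower and 9 higher, with a median log2 ratio of -0.42. Over all 14295 genes at that level, 58.3% were lower and the median was -0.16, and it was -0.17 over the 8893 genes whose higher group lay from 1 to under 20. The medians by cluster were -0.73 for 9 Hoxa genes, -0.07 for 8 Hoxb genes, -0.37 for 7 Hoxc genes and -1.23 for 4 Hoxd genes. By class they were -0.56 for 6 anterior, -0.30 for 15 central and -0.72 for 7 posterior genes. No tested gene among them passed the test, so these medians describe the pooled values only.

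**Figure D4:**
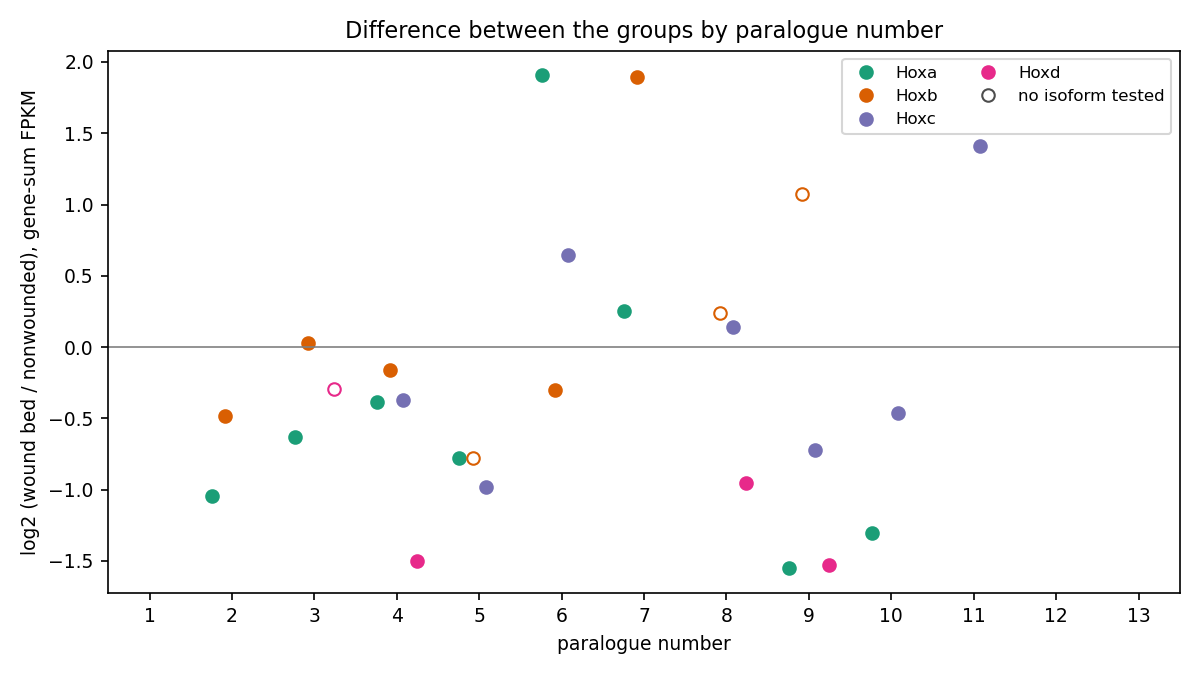
The log2 ratio of wound bed to nonwounded FPKM (y axis, summed over isoforms) is plotted against paralogue number for genes that reached an FPKM of 0.1 in each group, coloured by cluster, with open circles where no isoform was tested. Hoxa6 and Hoxb7 lie highest, at 1.91 and 1.90, and Hoxa9, Hoxd9 and Hoxd4 lie lowest, at -1.55, -1.53 and -1.50.

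Paralogues of the same number did not all lean the same way. In group 6 the values were higher in the wound bed for Hoxa6 and Hoxc6 and lower for Hoxb6, and the sum was 21.6 against 13.9 (0.64). In group 7 both members, Hoxa7 and Hoxb7, had the higher value in the wound bed, with a sum of 3.17 against 1.59 (0.997). In group 8 the sum was 18.1 in the wound bed against 26.4 in nonwounded precursors (-0.54), set by Hoxd8, while Hoxc8 was close to even. Groups 9 and 10 summed to 6.58 and 8.38 in the wound bed and to 13.1 and 14.7 in nonwounded precursors, log2 ratios of -0.99 and -0.81. The groups 2, 3, 4 and 5 had log2 ratios from -0.90 to -0.29. None of these sums has a test of its own.

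The genes with the smallest adjusted p were measured mainly through isoforms with a short coding stretch. Lengths here are those of the matched GENCODE models, which can differ from the isoforms that were quantified. The Hoxd8 isoform NM_001290731, of 557 bases with 321 coding bases before the stop codon, was at 8.84 in the wound bed against 16.4 in nonwounded precursors (-0.89, p = 0.009 in the authors' deposited table, adjusted p 0.0629). Another isoform, NM_001290730, of 1758 bases with 864 coding bases, was at 0.851 and 2.43 (-1.52, adjusted p 0.425). The isoform NM_008276, of 2634 bases, was listed at 0 in the wound bed, against 5.1e-05 in nonwounded precursors. For Hoxa10 the isoform NM_001122950, of 1436 bases with 282 coding bases, was at 2.63 and 6.08 (-1.21, p = 0.0171 in the authors' deposited table, adjusted p 0.0978). The isoform NM_008263, of 2565 bases with 1248 coding bases, was at 0.0749 and 0.592 and was not tested. In each gene the isoform with the shortest coding stretch had the highest FPKM in both groups.

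The junction into the last exon, 1 of the places where such isoforms differ, is shown for the tested pair of Hoxd8 and for both isoforms of Hoxa10. The sequences are from GENCODE models on GRCm38, with the end of the upstream exon in lower case and the start of the last exon in capitals.
Hoxd8 NM_001290731, chr2:74706104-74706118 joined to chr2:74706514-74706528, plus strand: ggatgagaccacaagCAGCTCCTGGTAGAC
Hoxd8 NM_001290730, chr2:74706104-74706118 joined to chr2:74706517-74706531, plus strand: ggatgagaccacaagCTCCTGGTAGACGGA
Hoxa10 NM_001122950, chr6:52240278-52240287 joined to chr6:52232761-52232780, minus strand: atgagtcaagGCAGTTCCAAAGGCGAAAAT
Hoxa10 NM_008263, chr6:52233959-52233968 joined to chr6:52232761-52232780, minus strand: gactccctggGCAGTTCCAAAGGCGAAAAT
The Hoxd8 junctions differ by a last exon that starts 3 bases later in NM_001290730, and the isoforms' start sites lie 537 bases apart. The Hoxa10 isoforms share the start of the last exon and join it from different upstream exons, with start sites 5915 bases apart. For Hoxa9, the isoform NM_001277238 was at 1.42 in the wound bed against 2.09 in nonwounded precursors (-0.56, adjusted p 0.611) and NM_010456 was at 0.000173 and 2.08 with p = 0.281 in the authors' deposited table (adjusted p 0.481), so the log2 ratio of -1.55 for the gene rested on the second isoform.

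Genes that act with or on Hox genes were read from 6 lists, as the major isoform of each gene (the tested one with the highest summed FPKM). Of all 13719 major isoforms, 7% were called higher and 8.68% lower, with a median log2 ratio of -0.14. Among 39 Polycomb and Trithorax regulators tested, 2 rose and 4 fell, with a median of -0.07. Kdm6b, which removes the Polycomb mark from histone H3, rose from 3.84 to 24.1 in the wound bed (log2 ratio 2.65, adjusted p 0.000882). Dot1l, a histone H3 methyltransferase linked to active Hox genes in leukaemia, rose from 2.56 to 8.80 (1.78, adjusted p 0.000882).

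Cbx7, a reader of the Polycomb mark, fell from 6.56 to 1.44 (-2.19, adjusted p 0.0110). Ezh1, a catalytic subunit that writes the mark, fell from 14.8 to 6.14 (-1.27, adjusted p 0.00239). Cbx6, another reader, fell from 25.2 to 12.99 (-0.96, adjusted p 0.00428), and Rbbp4, a histone-binding subunit, from 34.4 to 21.0 (-0.71, adjusted p 0.0371). The other catalytic subunit, Ezh2, was at 5.46 in the wound bed against 2.75 in nonwounded precursors and was not called (0.99, adjusted p 0.296). The abundant members Rbbp7, Rnf2, Kdm5b and Phc2 were not called either, with log2 ratios of 0.08, 0.26, 0.18 and 0.39. The 6 calls among 39 tested genes stood beside 15.7% of all major isoforms called.

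Some of the TALE homeodomain proteins bind DNA together with HOX proteins. The 13 TALE genes tested included Tgif1, Tgif2, Irx3 and Irx5 beside the Pbx, Meis and Pknox genes. Of the 13, 1 rose and 0 fell, with a median of 0.18. The one was Tgif1, a repressor of TGF-beta and retinoid signalling rather than a classical HOX partner, from 4.56 to 17.9 (1.98, adjusted p 0.00769). Of the partners proper, Pbx2, Meis1 and Meis3 were not called: Pbx2 was at 6.78 in the wound bed against 7.89 in nonwounded precursors, Meis1 at 5.10 and 6.04, and Meis3 at 3.77 and 5.56. Among 8 other direct partners 2 rose, the acetyltransferase Crebbp from 1.89 to 5.15 (1.44, adjusted p 0.000882) and the Hedgehog effector Gli3 from 2.16 to 5.06 (1.23, adjusted p 0.00167), with a median of 0.54. Hmgb1, Smad4, Smad1 and Ncor1 of that list were not called, with log2 ratios of -0.27, 0.32, 0.56 and 0.17.

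Retinoic acid switches on anterior Hox genes in the embryo, and 7 of 15 tested genes of its supply and sensing were called. Higher in the wound bed were the retinoic acid binding proteins Crabp2 (0.6996 to 19.99, log2 ratio 4.84, adjusted p 0.0308) and Crabp1 (2.40 to 34.0, 3.83, adjusted p 0.00306). Rdh10, which makes retinaldehyde, rose from 6.33 to 25.7 (2.02, adjusted p 0.000882), and Dhrs3, which turns it back to retinol, rose from 11.8 to 30.8 in its major isoform (1.39, adjusted p 0.0166), although summed over isoforms Dhrs3 was at 34.4 and 28.5. Among those that fell were the retinoic acid synthases Aldh1a3 (63.3 to 22.0, -1.53) and Aldh1a1 (64.4 to 27.2, -1.25), each with an adjusted p of 0.000882. The median of the list was 0.10. The receptors Rarg, Rxra and Rxrb were not called (-0.15, 0.10 and -0.08), nor was Cyp26b1, which breaks retinoic acid down (-1.71, adjusted p 0.131).

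Other transcription factors of skin position and patterning gave 2 that rose and 1 that fell of 22 tested, with a median of 0.28. Barx2 rose from 0.260 to 8.83 (5.08, adjusted p 0.0485) and Prrx2, a factor of limb and skin mesenchyme, from 9.13 to 25.5 (1.48, adjusted p 0.0191). Prrx1, Tbx15, Twist2 and Irx2 were not called, with log2 ratios of 0.42, 0.28, -0.12 and -0.78. En1, which marks a dorsal dermal fibroblast lineage in mice, was at 9.97 in the wound bed against 7.16 in nonwounded precursors and was not called (0.48, adjusted p 0.387). Of 16 noncoding RNAs from within the Hox clusters, 2 were tested and 0 called, Hotairm1 at 3.58 and 2.26 and Hoxd3os1 at 1.47 and 1.86, and 6 were listed at 0 in both groups.

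**Figure D5:**
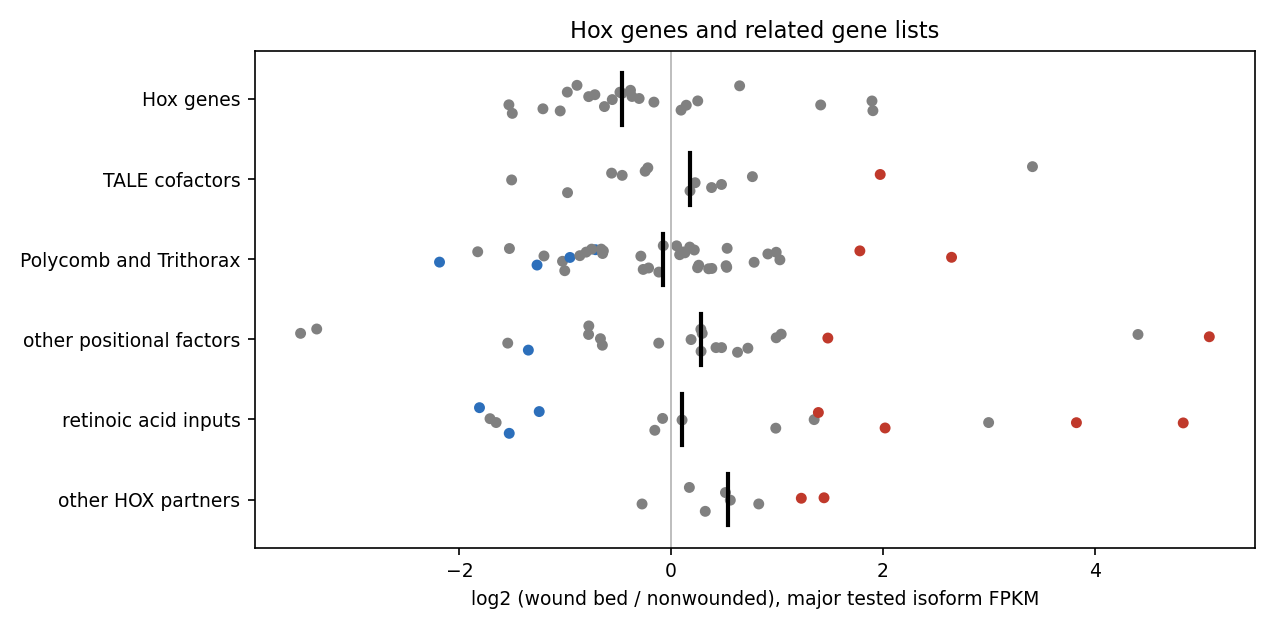
Each point is the major tested isoform of a gene, placed by its log2 ratio of wound bed to nonwounded FPKM, for the Hox genes and 5 lists of related genes, with black bars at the medians. Red points are called higher and blue points called lower at an adjusted p under 0.05, and the Hox row holds none of either.

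Adipocyte precursor markers were present in both groups. The counts called below stand beside 7% of all 13719 tested major isoforms called higher and 8.68% called lower. The surface antigens Ly6a and Cd34 were at 1539 and 476 in the wound bed, against 2149 and 739 in nonwounded precursors, and Pdgfra, a receptor that marks these cells, was at 81.2 and 78.8, all of them not called. Of the 8 markers in that list, 2 fell, Dpp4 and Cd24a, and the summed FPKM was 2807 in the wound bed against 4448 in nonwounded precursors. Markers of other cells differed as well. The sum of 8 macrophage markers was 712 in the wound bed against 235 in nonwounded precursors, with all 8 higher by value and 5 called, and that of 5 keratinocyte markers was 31.6 and 13.95, with all 5 higher by value and 2 called. Sums were lower in the wound bed for erythroid genes (135 against 2667, 3 of 3 fell), mature adipocyte genes (3.15 against 86.2, 1 of 4 fell), mast cell genes (4.94 against 50.9, 3 of 4 fell) and skeletal muscle genes (8.01 against 80.6, 1 of 5 tested fell). The endothelial sum was 25.2 against 88.7 with none of 4 called, and only Tek (18.4 against 83.1) was lower by value, while Pecam1, Cdh5 and Kdr were higher, with a median log2 ratio of 0.35. None of these marker lists held a gene listed at 0 in both groups. Their part in the Hox values was not tested, and any difference in body site between the groups cannot be told apart from the wound.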

How the data were processed

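Illumina TruSeq mRNA libraries were prepared from Trizol and column purified RNA, as the labels' protocols state. TopHat2 2.0.2 and Cuffdiff 2.0.2 were used and the build is named mm9, per the submitters' processing notes. The authors deposited 1 FPKM per isoform and group (6 nonwounded, 2 wound bed), with a p-value, a test status and a log2 fold change of nonwounded over wound bed, which was not used. Of 34535 isoforms, 17775 were tested, 16745 not tested, 13 had too many fragments and 2 failed. There were 0 unused columns of per-sample values, so depth and intervals are not given.

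The deposited p-values were adjusted here over all tested isoforms (Benjamini-Hochberg, threshold 0.05, tested on simulated data). The calls differed from the deposited significance column for 0 isoforms. In all, 2294 isoforms were called, 1006 higher and 1288 lower. Log2 ratios are wound bed over nonwounded, without a pseudocount. Symbols that a spreadsheet had turned into dates (56 of 56) were restored through RefSeq GRCm38.p6. Positions are those of the table, and for the Hox genes they are GRCm38 positions although the notes name mm9. All 39 Hox loci overlapped the GRCm38 gene, and 32 had a start or end within 100 bases of it. Sequences were therefore taken from GENCODE M21 on GRCm38 by transcript identifier (45 of 45 matched). Both Hoxa9 isoforms were matched to a model with the same start site, length and exon number. A matched model thus need not be the isoform that was quantified. Python 3.11.15, pandas 2.3.3 and scipy 1.17.1 were used.

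Hox genes that reached an FPKM of 1 in either group are named with values. From each list, up to 6 called genes and the 4 most abundant not called are named. Outside this rule and chosen after their values were seen are Pdgfra, Dpp4, Tek, Pecam1, Cdh5, Kdr, Cd24a, Ezh2, En1, Aldh1a1 and the values of Hoxc11 and Hoxc13. Some values under this rule are not reported here, in the text or the figures, though the counts, sums and medians include them. The members and lists were chosen with earlier results of these data known. The alternatives were other thresholds, FPKM minimums, pseudocounts, isoform choices and centring.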

Additional observations from a re-analysis of the deposited data

How the results depend on the processing

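No paired analysis was possible because the table gives 1 value per group and none per sample, and leaving out a replicate was not run for the same reason. The count of called Hox isoforms was 2 (Hoxd8 and Hoxa10) at an adjusted p under 0.1, beside 17.7% of all tested isoforms. It was 0 when the p-values were adjusted over isoforms with an FPKM of at least 1 only. The other alternatives only added a stricter cut or a filter, so they could not raise the count above 0. At an adjusted p under 0.01 the whole table held 1465 calls, 642 higher and 823 lower, and the lists 7 genes called higher in place of 11. Shares by cluster and class stayed within 1.5 times of those reported when isoforms that were not tested were left out. With a pseudocount of 1 FPKM the median log2 ratios shrank to -0.19 for all Hox genes, -0.32 for Hoxa, -0.038 for Hoxb, -0.77 for Hoxd, -0.26 for the anterior and -0.14 for the central class. Among genes that reached an FPKM of 1 in each group the median was -0.16 for Hoxb and -0.23 for the anterior class, and with all genes above 0 it was -1.53 for the posterior class. The Hoxb median was -0.16 with tested isoforms only, -0.034 with major isoforms and 0.042 after centring on the median of expressed isoforms (-0.11), a setting added after seeing the data, under which the central class was at -0.19. The direction for Hoxb is therefore not settled. None of the 21 named Hox genes changed sign under the settings run, which could hardly have changed one. A pseudocount cannot change a sign, and centring shifted every gene by the same small amount. Summing over isoforms altered only genes with more than 1 isoform. Over all results, 98 of 116 summary values and 66 of 84 values of single genes stayed within 1.5 times. Group values with unknown depth and 2 wound bed samples limit every comparison.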

Other observations

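A microRNA precursor of the Hoxc cluster, Mir196a-2, was listed at an FPKM of 46.2 in nonwounded precursors and at 0 in the wound bed and was not tested. The other microRNA precursors of the clusters in the table, Mir10a, Mir10b, Mir196a-1, Mir196b and Mir615, were listed at 0 in both groups. These hairpins are short, and an FPKM divides by length. The Mir196a-2 gene was named after its value was seen.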
